A study of Homo sapiens with 12 samples.

Results

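The antiproliferative and quiescence-linked genes examined here were BTG1, BTG2, TOB1, TOB2, PNRC1, TXNIP, KLF2, KLF6 and CITED2, and they were taken from the expression table by gene symbol, 9 of its 58233 genes. RNA was sequenced from HL-60, an established line of human acute myeloid leukaemia cells, in 12 libraries. All cells were harvested at 3 h, and the 4 groups of 3 libraries were untreated cells, cells given 100 nM ATRA (all-trans retinoic acid, the ligand of the retinoic acid receptors), cells given 500 nM palbociclib (an inhibitor of the cell cycle kinases CDK4 and CDK6), and cells given both at these doses (the combination). Levels are RPKM, reads scaled to the length of the gene and the size of the library, given here as whole numbers, so a value of 0 lies under the rounding step and replicates of a low gene can be identical. The methods speak in general of independent experiments unless stated otherwise, but call the sequenced libraries barcoded triplicates, and the labels name no separate cultures. The p-values therefore measure the spread between libraries, which may be technical.

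The BTG and TOB proteins are antiproliferative and bind the CCR4-NOT deadenylase. This enzyme shortens the poly(A) tails of messenger RNAs and so limits their life. BTG1 and BTG2 are often high in resting lymphocytes and are switched off as cells enter the cycle, and BTG2 is a classic early response gene and p53 target. TXNIP binds thioredoxin and lowers glucose uptake, KLF2 and KLF6 are zinc finger transcription factors tied to quiescence and growth restraint, and CITED2 competes for the CBP and p300 coactivators. PNRC1 binds nuclear receptors and components of the decapping machinery.

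The upstream sequences of BTG2 and TXNIP are shown because BTG2 had the largest change with ATRA among the 7 tested genes and TXNIP the highest level of the 9. Both are the 250 bases before a RefSeq start site on GRCh38.p14, 5′ to 3′ on the gene's strand. For BTG2 (chr1:203305269-203305518, plus strand) capitals mark TGACCT, the reverse complement of the nuclear receptor core AGGTCA, which starts 194 bases before the start site. For TXNIP (chr1:145996580-145996829, minus strand) they mark 2 copies of CACGAG spaced by any 5 bases and the bases between them, starting 88 bases before the start site.
BTG2: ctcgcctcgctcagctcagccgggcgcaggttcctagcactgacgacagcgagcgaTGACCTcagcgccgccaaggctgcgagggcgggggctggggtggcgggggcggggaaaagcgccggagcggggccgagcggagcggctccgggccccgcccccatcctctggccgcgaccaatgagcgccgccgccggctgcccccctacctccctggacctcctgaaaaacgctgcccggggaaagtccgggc
TXNIP: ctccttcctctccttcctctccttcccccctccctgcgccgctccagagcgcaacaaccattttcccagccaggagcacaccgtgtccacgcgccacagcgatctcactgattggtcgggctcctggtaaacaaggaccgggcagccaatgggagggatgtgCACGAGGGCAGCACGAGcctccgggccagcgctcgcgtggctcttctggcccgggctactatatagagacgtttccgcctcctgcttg
The spaced pair in TXNIP has the layout of a carbohydrate response element, the kind of site that the MondoA and MLX factors bind, and was searched for after this window had been read. On both strands it was in 2 of 34943 RefSeq windows of this length (0.00572%). Because the letters searched for were those of the TXNIP window, its presence there was fixed in advance. Its share is therefore not comparable with those of the other motifs. AGGTCA was in 12.1%, the E-box CACGTG in 6.32% and the cyclic AMP element TGACGTCA in 1.63%. Of the 13 windows of the 9 genes, AGGTCA was in 1, that of BTG2, CACGTG was in 2, those of KLF6 and CITED2, and TGACGTCA was in 0. The BTG2 window was 74.8% G and C, against a median of 58.0% over all windows. These are matches of letters in a window, and no binding was measured.

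All 9 genes are protein coding in GENCODE v44 on GRCh38. BTG2 (ENSG00000159388) lies at chr1:203305491-203309602 on the plus strand and TXNIP (ENSG00000265972) at chr1:145992435-145996579 on the minus strand. BTG1 (ENSG00000133639) lies at chr12:92140278-92145846, TOB1 (ENSG00000141232) at chr17:50862223-50867978 and TOB2 (ENSG00000183864) at chr22:41433494-41446801, each on the minus strand. PNRC1 (ENSG00000146278) is at chr6:89080751-89085160 on the plus strand and CITED2 (ENSG00000164442) at chr6:139371807-139374648 on the minus strand. KLF2 (ENSG00000127528) is at chr19:16324826-16328685 on the plus strand and KLF6 (ENSG00000067082) at chr10:3775996-3785281 on the minus strand. BTG1 shares 503 of its 4855 exonic bases with LINC01619 on its own strand and 274 with BTG1-DT on the other, and TOB1 shares 281 of 2521 with the antisense TOB1-AS1, so the division of reads between these genes is uncertain.

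The values of a library summed to between 358455 and 390247 RPKM, which is no read total, so the depth of a library is unknown from the table and no counting error is given. The HL-60 label was checked with 8 myeloid genes, whose summed level was 1601 to 1829 RPKM in untreated libraries, 1514 to 1700 with ATRA, 1776 to 1998 with palbociclib and 1540 to 1780 with the combination. MPO, one of the 8, made up most of this sum and was at 1350.0 RPKM in untreated cells and 1130.0 with ATRA (adjusted p 0.0625). CTSG, another, was at 21.0 and 15.7 (adjusted p 0.0573). At an adjusted p under 0.05 against palbociclib alone, the combination had 2 of 7 tested list genes higher and 2 lower (MPO and CTSG). Of all tested genes 5.86% were higher and 6.64% lower. At this threshold ATRA against untreated had 3 of the 7 higher, AZU1 among them, and 0 lower. The shares of all tested genes there were 8.71% and 11.6%. ELANE, the neutrophil elastase gene and one of the 8, was listed at 0 or 1. Of this list SPI1, the PU.1 gene, rose with the combination (83.7 to 111.0 RPKM, adjusted p 0.000185), and CEBPA, a granulocyte lineage factor, rose from 34.7 RPKM to 52.7 with ATRA (0.000532) and 51.3 with the combination (0.00052). CEBPA lost each call without 9 of the 12 libraries in turn (adjusted p up to 0.00402 and 0.0038), and SPI1 lost its call without untreated replicate 1 or combination replicate 2 or 3 (up to 0.00121). Of the T cell markers 3 of 4 were at 0 throughout and the sum was 24 to 34 RPKM, all from CD4, and the B cell and erythroid lists, each with 2 of 3 genes at 0 in every library, summed to 0 or 1. CD79A, a B cell marker, was at 1 in each library with ATRA and at 0 in the others, and its part in the results was not tested.

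In untreated cells the order of levels was TXNIP at 46.0 ± 2.65 RPKM (SD, n = 3), CITED2 at 37.3 ± 3.51, TOB2 at 14.0 ± 1.0, PNRC1 at 8.33 ± 1.53, BTG1 at 8.0 ± 1.0, TOB1 at 5.33 ± 0.577, BTG2 at 4.67 ± 0.577, KLF6 at 2.0 and KLF2 at 0. PNRC1 and BTG1 overlapped in their libraries, as did TOB1 and BTG2, and all other neighbours were apart. TXNIP was above 84.8% of the 7820 tested genes and BTG2 above 6.41%. BTG2 was 7th of the 9 in untreated cells, 4th with ATRA, where it overlapped TOB2, and 3rd with the combination, where it again overlapped TOB2. TXNIP was first and CITED2 second in each of the 4 groups.

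**Figure D1:**
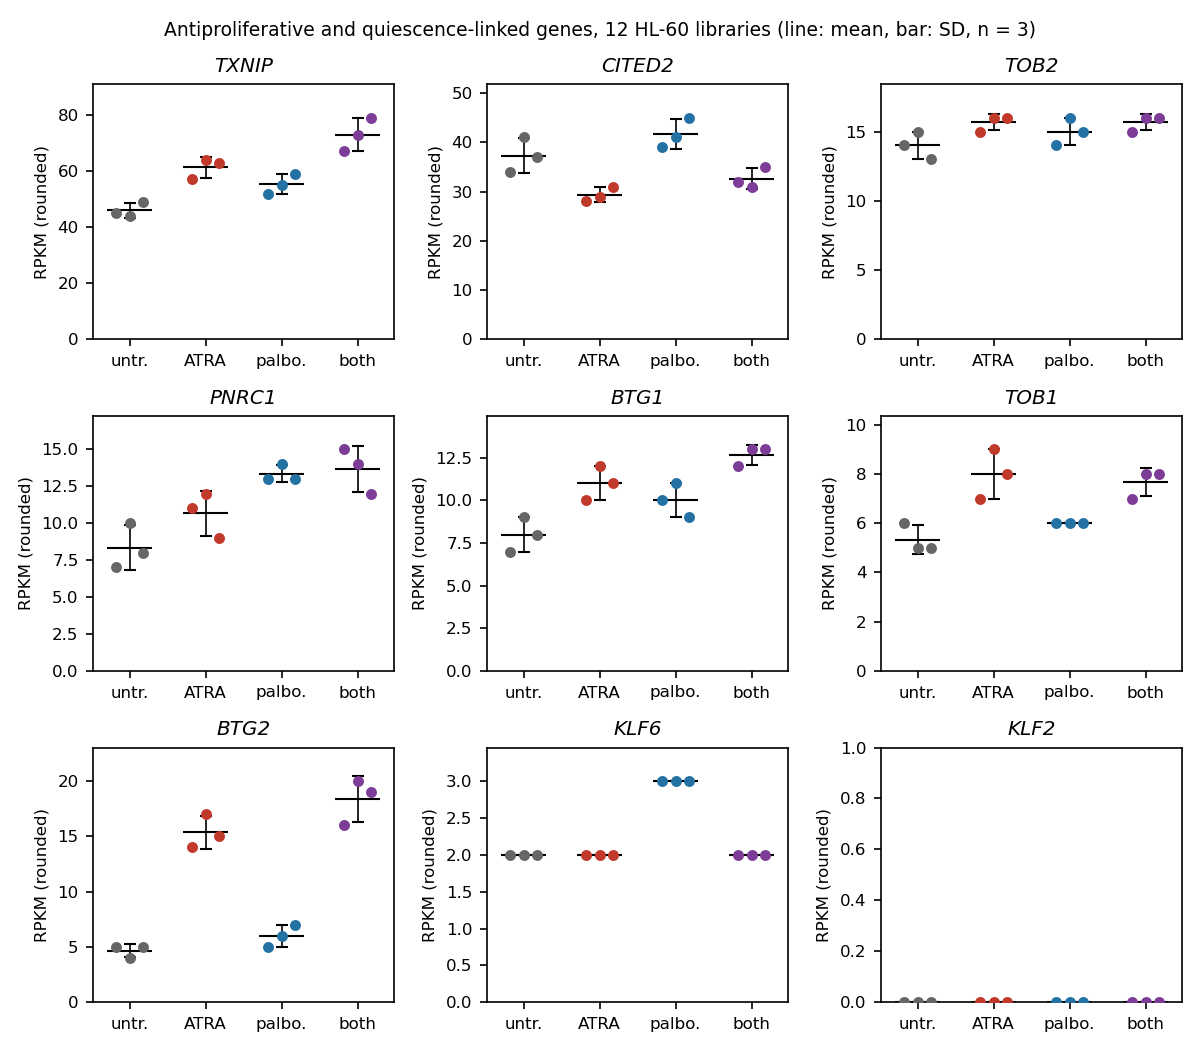
RPKM of the 9 genes (vertical axes, each from 0) in the 3 libraries (points) of untreated, ATRA, palbociclib and combination cells, with the mean (line) and SD (bar). BTG2 lies between 4 and 7 RPKM without ATRA and between 14 and 20 with it, and KLF2 is at 0 in all 12 libraries.

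The first question was what ATRA alone did to these genes. BTG2 rose about 3-fold and was the only one of the 7 tested genes past the threshold, an adjusted p-value under 0.001 from limma. A gene was tested where at least 3 libraries reached 5 RPKM, which left out KLF2 and KLF6. That is 1 of 7 genes higher, against 2.77% of all tested genes. BTG1, TOB1 and TXNIP had higher values and CITED2 lower values than any untreated library without passing this threshold.

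BTG2 was at 5, 4 and 5 RPKM in untreated replicates 1, 2 and 3, at 14, 17 and 15 with ATRA, at 5, 6 and 7 with palbociclib and at 16, 20 and 19 with the combination. The 6 libraries with ATRA all lay above the 6 without it, and palbociclib alone overlapped untreated. With ATRA the mean was 15.3 ± 1.53 RPKM (SD, n = 3), which gave a log2 fold change of 1.70 (SE 0.139) on the RPKM + 0.1 scale used throughout, or 3.24-fold (95% interval 2.62 to 4.02), with an adjusted p-value of 1.54e-05. Of the tested genes 0.972% had a larger increase. Rounding alone lets the ratio of the means lie anywhere from 2.87 to 3.8. The call held without any single library (adjusted p 2.58e-05 to 0.000166), and when the 6 libraries compared were fitted alone the adjusted p was 0.00173.

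BTG1, the closest relative of BTG2 in this set, was at 7, 9 and 8 RPKM in untreated cells, 10, 12 and 11 with ATRA, 10, 11 and 9 with palbociclib and 12, 13 and 13 with the combination. Its ATRA and combination libraries were above all untreated ones, while palbociclib reached down to the highest untreated value. The log2 fold change with ATRA was 0.46 (SE 0.106, adjusted p 0.0114), that is 1.37-fold.

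TOB1, which like BTG2 recruits the deadenylase, was at 6, 5 and 5 RPKM in untreated cells, 7, 9 and 8 with ATRA, 6, 6 and 6 with palbociclib and 7, 8 and 8 with the combination. Both groups with ATRA stood above both groups without it. The ATRA log2 fold change was 0.57 (SE 0.106, adjusted p 0.00321). TOB2, the paralogue of TOB1, was at 14, 15 and 13 RPKM in untreated cells, 15, 16 and 16 with ATRA, 14, 16 and 15 with palbociclib and 15, 16 and 16 with the combination. All 4 groups overlapped, and the ATRA difference was 0.16 on the log2 scale (95% interval 0.01 to 0.32, adjusted p 0.132).

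TXNIP, the thioredoxin-binding arrestin relative, was at 45, 44 and 49 RPKM in untreated cells, 57, 64 and 63 with ATRA, 52, 55 and 59 with palbociclib and 67, 73 and 79 with the combination. Untreated libraries were the lowest and combination libraries the highest, with the 2 single treatments between them and overlapping each other. With ATRA the log2 fold change was 0.41 (SE 0.08, adjusted p 0.00371), or 1.33-fold. CITED2, the CBP and p300 binding protein, was at 34, 41 and 37 RPKM in untreated cells, 28, 29 and 31 with ATRA, 39, 41 and 45 with palbociclib and 32, 31 and 35 with the combination. Its ATRA libraries were below all untreated ones, with a log2 fold change of -0.34 (SE 0.08, adjusted p 0.0135). PNRC1 was at 7, 10 and 8 RPKM in untreated cells, 11, 12 and 9 with ATRA, 13, 14 and 13 with palbociclib and 15, 14 and 12 with the combination. Its untreated and ATRA libraries overlapped, and both groups with palbociclib lay above untreated.

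At the looser threshold of 0.05, 4 of the 7 genes were higher with ATRA (BTG1, BTG2, TOB1 and TXNIP), against 8.71% of tested genes, and 1 was lower (CITED2), against 11.6%. The same 4 genes did not overlap untreated, a pattern that 12.4% of tested genes showed upwards, and CITED2 did not overlap downwards, as did 17.3%. The median log2 fold change of the 7 was 0.41, with 6 of 7 above 0, against -0.01 over all tested genes, of which 44.6% were above 0. In bulk RNA fewer cells of one kind and less RNA per cell cannot be told apart.

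**Figure D2:**
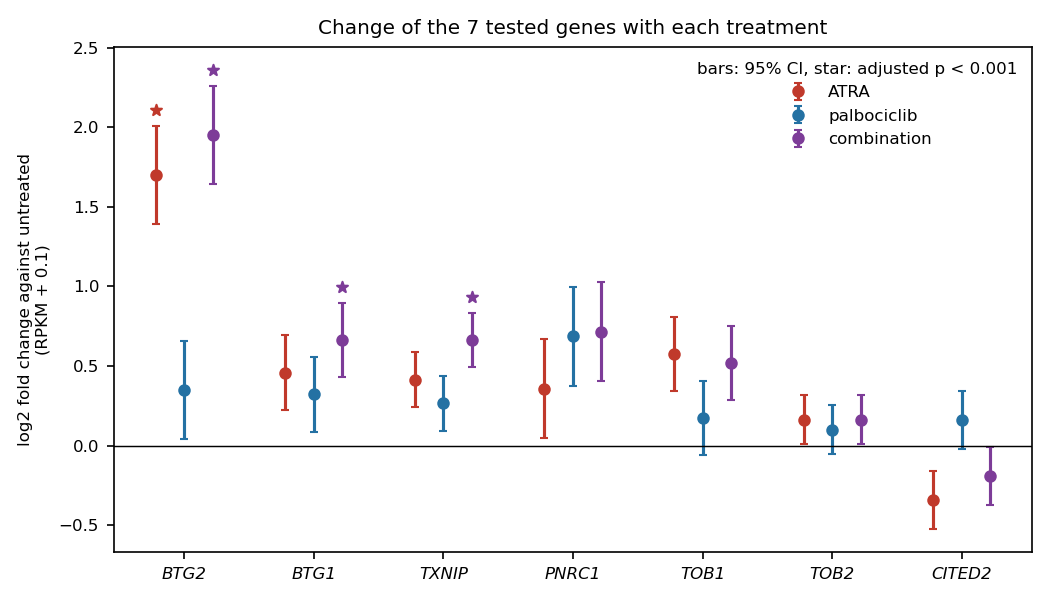
Log2 fold change against untreated on the RPKM + 0.1 scale (vertical axis) of the 7 tested genes with ATRA, palbociclib and the combination, with 95% intervals from limma and stars at an adjusted p-value under 0.001. BTG2 stands at 1.70 with ATRA and 1.95 with the combination, and CITED2 is the only gene with values under 0.

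Palbociclib alone was compared with untreated cells to see what inhibition of CDK4 and CDK6 did without ATRA. None of the 7 genes passed the threshold of 0.001 in limma, which 1 of the 7820 genes passed upwards (0.0128%). At an unadjusted p under 0.05 there were 4 (BTG1, BTG2, PNRC1 and TXNIP), against 569 higher genes among all tested (7.28%). All 7 differences were above 0, with a median of 0.27 on the log2 scale, where the median of all tested genes was 0 and 48.0% were above it.

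PNRC1 had the largest difference of the 7, at 13.3 ± 0.577 RPKM against 8.33 ± 1.53 in untreated cells (SD, n = 3 each). Its 3 palbociclib libraries were above all untreated libraries, with a log2 fold change of 0.69 (SE 0.14), or 1.61-fold (95% interval 1.3 to 1.99), and an adjusted p of 0.0228. Only 0.256% of tested genes had a larger increase, which put it at rank 21 from the top. It was 1 gene of 7 at an adjusted p under 0.05, against 0.908% of tested genes, and left out singly the libraries gave an adjusted p of 0.0172 to 0.0916, the highest without untreated replicate 1.

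TXNIP with palbociclib was 1.2-fold the untreated level (log2 0.27, SE 0.08, adjusted p 0.0887), with no overlap between the groups. PNRC1 and TXNIP were thus 2 of 7 genes without overlap upwards, against 5.74% of tested genes. BTG2 stood at 6.0 ± 1.0 RPKM (SD, n = 3), a log2 difference of 0.35 with a 95% interval of 0.04 to 0.66 (adjusted p 0.218), and BTG1 at 10.0 ± 1.0, a difference of 0.32 (adjusted p 0.131). TOB1, TOB2 and CITED2 differed by 0.17, 0.10 and 0.16 and overlapped untreated.

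The 2 KLF genes were outside the test. KLF2 was listed at 0 in all 12 libraries, so no fold is given. KLF6 was at 2 RPKM in each untreated, ATRA and combination library and at 3 in each palbociclib library. With the rounding, the true ratio of palbociclib to untreated could be from 1.0 to 2.33. Replicates of this gene were identical within every group, so no spread could be estimated from them, and its calls with a lower filter rest on this.

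**Figure D3:**
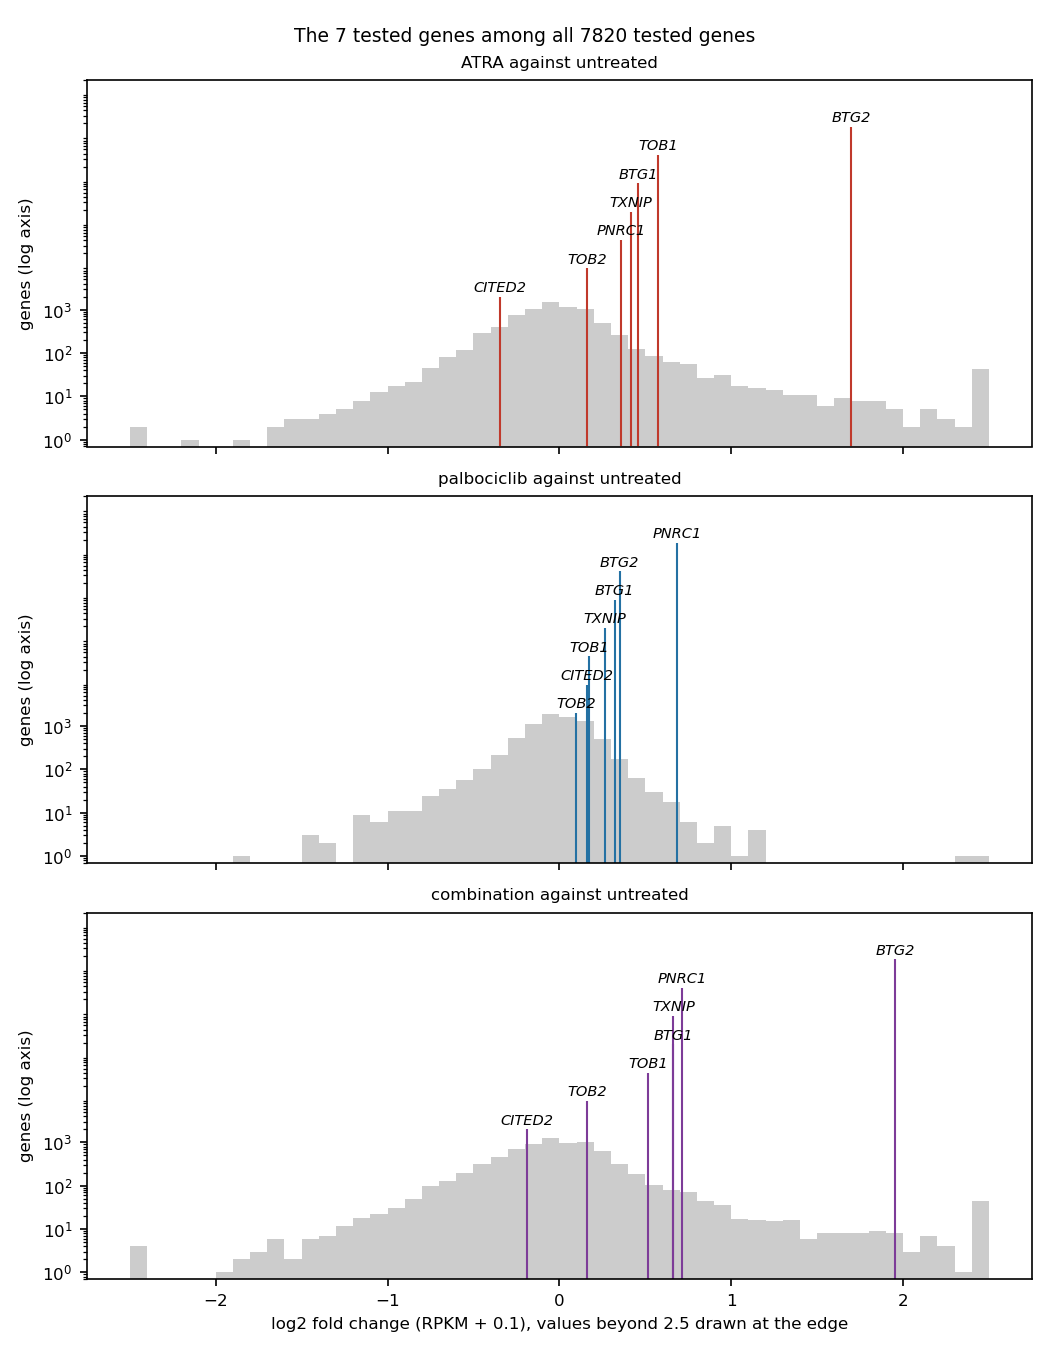
Number of the 7820 tested genes (vertical log axis) by log2 fold change against untreated on the RPKM + 0.1 scale, for ATRA, palbociclib and the combination, with lines at the 7 genes whose heights only separate the names. BTG2 lies in the upper tail with ATRA and the combination and PNRC1 in that with palbociclib.

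The combination was compared with untreated cells to see the joint effect. BTG2, BTG1 and TXNIP rose past the threshold of 0.001, 3 of the 7 genes against 3.76% of all tested genes. No tested member was lower at this threshold, and at an unadjusted p under 0.05 CITED2 was the 1 lower member, against 22.8% of all tested genes.

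BTG2 reached 18.3 ± 2.08 RPKM (SD, n = 3), which gave a log2 fold change of 1.95 (SE 0.139) and 3.87-fold (95% interval 3.13 to 4.79, adjusted p 4.25e-06). TXNIP reached 73.0 ± 6.0 RPKM and had a log2 fold change of 0.66 (SE 0.08) and 1.58-fold (95% interval 1.41 to 1.78, adjusted p 0.000118). BTG1 reached 12.7 ± 0.577 RPKM, with a log2 fold change of 0.66 (SE 0.106), 1.58-fold (95% interval 1.35 to 1.86) and an adjusted p of 0.000941. BTG1 lost its call when any 1 of the 12 libraries was left out (adjusted p 0.00111 to 0.00552), and TXNIP lost it without untreated replicate 1 (0.00107) or untreated replicate 2. When the 6 libraries compared were fitted alone, the adjusted p was 0.00116 for BTG2, 0.00488 for TXNIP and 0.0101 for BTG1.

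PNRC1, at 13.7 ± 1.53 RPKM (SD, n = 3), had a log2 fold change of 0.72 (SE 0.14, adjusted p 0.00305), and TOB1, at 7.67 ± 0.577, had one of 0.52 (SE 0.106, adjusted p 0.00392). With BTG1, BTG2 and TXNIP they made 5 of 7 genes at an adjusted p under 0.05, against 12.7% of tested genes. The same 5 were above untreated without overlap, against 15.3%. TOB2 differed by 0.16 (adjusted p 0.107) and CITED2 by -0.19 (95% interval -0.37 to -0.01, adjusted p 0.111). The median of the 7 was 0.66 and 6 of 7 were above 0, against -0.01 and 46.0% over all tested genes.

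To see what palbociclib added to ATRA, the combination was compared with ATRA alone. None of the 7 genes passed the threshold of 0.001 in limma (0.0% of all tested genes were called higher). At an unadjusted p under 0.05 there were 2, PNRC1 and TXNIP, against 44 higher genes among all tested (0.563%). TXNIP was 1 of 7 genes whose combination libraries were all above the ATRA libraries, against 0.87% of tested genes, at 1.19-fold (95% interval 1.06 to 1.34, adjusted p 0.634). PNRC1 was 1.28-fold higher (95% interval 1.03 to 1.59, adjusted p 1.0) with overlapping libraries, and ranked 8 from the top of all tested genes by log2 fold change.

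The treated libraries with the same replicate number deviated together from their group means, so they were also compared pair by pair. TXNIP was 1.18, 1.14 and 1.25 times as high with the combination as with ATRA in pairs 1, 2 and 3, BTG2 1.14, 1.18 and 1.27 times, and PNRC1 1.36, 1.17 and 1.33 times. BTG1 and CITED2 were also higher in each pair, and these 5 of 7 genes compare with 11.3% of all tested genes. TOB1 was lower in pair 2 and equal in the others, and TOB2 was equal in all 3 pairs. In a fit with replicate numbers as a block, the adjusted p for TXNIP was 0.0557, and 0 of the 7 genes were called. The block was also fitted to the 9 treated libraries alone, a fit chosen after seeing the data. There the adjusted p for TXNIP was 0.0303, and 0.575% of all tested genes were higher at an adjusted p under 0.05. None of the 7 genes passed 0.001, and 0.0% of all tested genes did so upwards.

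**Figure D4:**
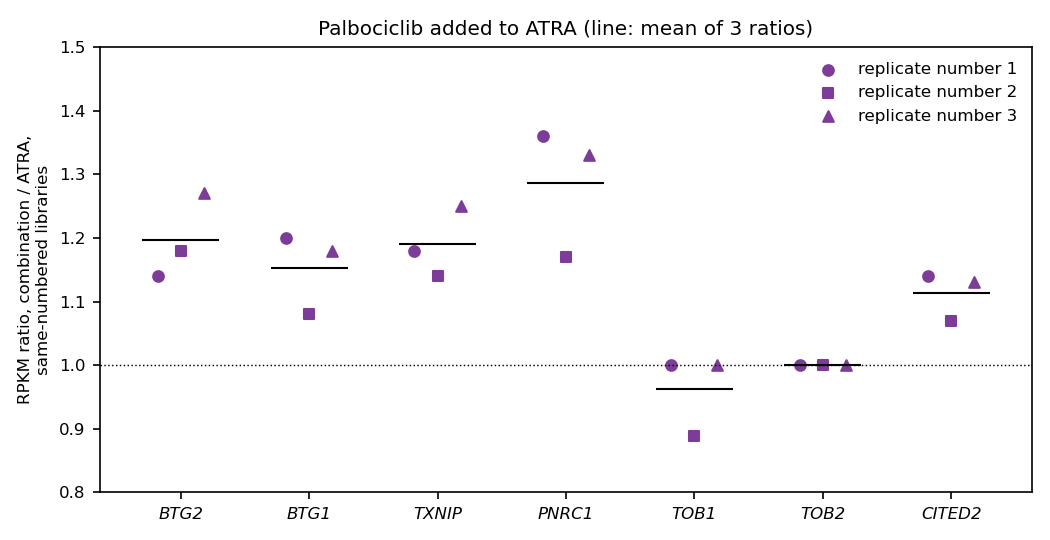
Ratio of RPKM with the combination to RPKM with ATRA (vertical axis, from 0.8) in the 3 pairs of libraries with the same replicate number (symbols) for the 7 tested genes, with the mean of the ratios (line). All 3 symbols lie above 1 for BTG2, BTG1, TXNIP, PNRC1 and CITED2, and TOB2 is at 1.0 in each pair.

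Against palbociclib alone, the combination shows what ATRA did in the presence of the inhibitor. BTG2 rose from 6.0 to 18.3 RPKM, a log2 fold change of 1.60 (SE 0.139) and 3.04-fold (95% interval 2.45 to 3.76, adjusted p 2.66e-05), and was 1 of 7 genes called, against 2.11% of tested genes. With only the 6 libraries compared its adjusted p was 0.0064. TXNIP was 1.32-fold higher (SE 0.08 on the log2 scale, adjusted p 0.00639), and a fit with replicate numbers as a block put its adjusted p at 0.000322, past the threshold, where 3.58% of all tested genes were called higher. CITED2 had a log2 fold change of -0.35 (SE 0.08, adjusted p 0.0176, and 0.00415 with the replicate block).

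At an adjusted p under 0.05, BTG2 and TXNIP were higher, 2 of 7 genes against 5.86% of tested genes, and CITED2 was lower, 1 of 7 against 6.64%. BTG1, BTG2, TOB1 and TXNIP did not overlap between the groups, as did 8.26% of tested genes upwards, and were also higher in each pair, as were 18.7%. CITED2 was lower without overlap, as were 9.86% of tested genes, and lower in each pair, as were 23.0%. CITED2 in the combination was 0.821, 0.756 and 0.778 times its palbociclib level in pairs 1, 2 and 3. PNRC1 differed by 0.03 on the log2 scale (95% interval -0.28 to 0.34, adjusted p 0.962).

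The departure from additivity is how far the log2 effect of palbociclib in cells given ATRA exceeds its effect in cells that were not. No member passed the threshold in limma (0.0% of tested genes were called above 0), and at an unadjusted p under 0.05 there were 0 members, with 154 genes above 0 and 82 below among all tested. If the 2 single effects simply multiplied, the combination level of TXNIP would be 73.8 RPKM, and the measured mean was 73.0. For CITED2 both were 32.7 RPKM, for BTG2 they were 19.7 and 18.3, and for BTG1 13.8 and 12.7. The largest gap was that of PNRC1, with 17.1 expected from the product and 13.7 measured, a departure of -0.33 (95% interval -0.77 to 0.11, adjusted p 1.0). All 7 departures were under 0, where 47.7% of all tested genes were above 0. The 7 share the same libraries, and those of BTG2, TXNIP and CITED2 turned above 0 under some of the alternative settings. All adjusted p-values were 1.0, and the intervals do not show that the effects were additive.

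The patterns most like those of the 3 called genes over the 12 libraries were listed by Pearson's r on the log2 scale, as a description, since the points share libraries and treatments. For BTG2 these were TBL2 (r 0.987), GFI1 (0.986), a transcriptional repressor of blood cell development, and PIK3R5 (0.985). TBL2 went from 5.33 RPKM in untreated cells to 19.3 with ATRA, 6.33 with palbociclib and 20 with the combination. For BTG1 they were DUSP6 (0.959), a phosphatase of the ERK kinases, HERPUD1 (0.956) and NFKBIL1 (0.952), and for TXNIP they were WBP1L (0.969), GOLGA5 (0.967) and WARS (0.962), a tryptophanyl-tRNA synthetase.

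The genes around these members were described by lists of relatives and partners. Over all tested genes, 2.77% were called higher and 1.94% lower with ATRA against untreated. The shares were 0.0128% and 0.486% with palbociclib, 3.76% and 4.28% with the combination, and 2.11% and 0.997% for the combination against palbociclib. Of the other BTG and TOB family genes, BTG4 was at 0 and BTG3 was the 1 tested. BTG3 fell with the combination, opposite in sign to BTG1 and BTG2, from 8.0 RPKM (8 in each untreated library) to 4.33 ± 0.577 (SD, n = 3), a log2 fold change of -0.88 (SE 0.121, adjusted p 0.000344). It was at 5.33 with ATRA (adjusted p 0.00648) and 4.33 with palbociclib (adjusted p 0.00287). Its combination call was lost without any one untreated library or combination replicate 2 or 3 (adjusted p up to 0.00233).

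The CCR4-NOT deadenylase, its relatives and the poly(A)-binding proteins had 13 of 16 genes tested, and 0 were called in any of the 6 comparisons. At an adjusted p under 0.05 the combination had 2 of the 13 higher and 4 lower against untreated. Of all tested genes 12.7% were higher and 17.7% lower. Among the 4 lower, TNKS1BP1 reached the filter level of 5 RPKM only in libraries without ATRA. Its test is therefore not independent of this difference. CNOT8, one of the catalytic subunits, averaged 29.7 RPKM without treatment and 36.7 with the combination (adjusted p 0.00268), and PABPC1, the main poly(A)-binding protein, at 385.0 and 401.0 (adjusted p 0.475). The list's median log2 difference with the combination was -0.14. Of the decapping list 7 of 8 genes were tested and 0 were called. PNRC2, the paralogue of PNRC1, was at 99.3 RPKM in untreated cells, 116.0 with ATRA (adjusted p 0.00759), 106.0 with palbociclib (adjusted p 0.372) and 121.0 with the combination (adjusted p 0.00133).

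Of the TXNIP axis, which holds arrestin relatives, the MondoA and MLX factors, thioredoxins and a glucose transporter, 6 of 13 genes were tested. SLC2A1, the glucose transporter that TXNIP is known to restrain, was the 1 called gene. It fell from 9.33 ± 0.577 to 4.67 ± 0.577 RPKM with ATRA (SD, n = 3 each), a log2 fold change of -0.99 (SE 0.117, adjusted p 0.000198), and to 4.33 ± 0.577 with the combination (-1.10, adjusted p 6.69e-05). The ATRA call was lost without any one of the 3 untreated libraries (adjusted p up to 0.00158). Against palbociclib alone, SLC2A1 was lower in the combination with an adjusted p of 0.00163, and MLX with one of 0.0122. With the replicate block these were 0.000204 and 0.000861, past the threshold. MLX, the partner of MondoA, averaged 24.0 RPKM without treatment and 19.7 with ATRA (adjusted p 0.00843), and TXN, thioredoxin itself, at 212.0 and 216.0 (adjusted p 0.949). MLXIPL, the ChREBP gene, was untested, listed at 0 in every library without ATRA and at 3 or 4 RPKM in every library with it.

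Only 2 of 15 other KLF genes were tested, and 4 were at 0 in every library. KLF16 fell from 10.7 ± 0.577 to 4.67 ± 0.577 RPKM with ATRA (SD, n = 3 each), a log2 fold change of -1.18 (SE 0.109, adjusted p 3.37e-05), and was at the same mean with the combination (adjusted p 2.33e-05). KLF13 went the other way in its values, from 11.3 to 20.0 RPKM with ATRA (adjusted p 0.00531) and 20.3 with the combination (adjusted p 0.00308). Of the CITED2 paralogues, coactivators and hypoxia factors 5 of 7 were tested and 0 were called, and CITED4 was at 6.33 RPKM in untreated cells and 12.7 with ATRA (adjusted p 0.0263).

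Of 21 FOXO factors and quiescence-linked genes 8 were tested, and DDIT4, an inhibitor of mTORC1 signalling, was the 1 called. It rose from 4.0 ± 1.0 to 29.3 ± 4.04 RPKM with ATRA (SD, n = 3 each), a log2 fold change of 2.86 (SE 0.193, adjusted p 3.84e-06), and to 34.3 ± 5.03 with the combination (3.09, adjusted p 1.82e-06). With palbociclib DDIT4 was at 8.33 ± 1.53 (1.06, adjusted p 0.0122). When only the 6 libraries compared were fitted, its adjusted p with ATRA was 0.00191. IRS2, an insulin receptor substrate, was at 4.67 RPKM with palbociclib and 2.33 with the combination. It reached the filter level of 5 RPKM only in libraries without ATRA. Its tests are therefore not independent of this difference, and no p-value is given. CDKN1B, which encodes the inhibitor p27, was at 11.3 RPKM in untreated cells and 13.7 with ATRA (adjusted p 0.0957), and CDKN1A, which encodes p21, was untested at 1.0 RPKM without ATRA and 4.0 with it. Of the 10 cycling markers 8 were tested and CCNE1, cyclin E1, was the 1 called, from 14.3 RPKM in untreated cells down to 8.33 with ATRA (adjusted p 0.00032), 5.0 with palbociclib (7.36e-05) and 4.33 with the combination (1e-06). Its ATRA call was lost without untreated replicate 1 or 3 or ATRA replicate 2 or 3 (adjusted p up to 0.00257), and its palbociclib call without untreated replicate 1 (0.00124). At an adjusted p under 0.05, 3 of the 8 were lower with palbociclib (PCNA, CCNA2 and CCNE1), against 3.16% of tested genes, and 0 were higher. The same 3 were lower with the combination, against 17.7%. PCNA was at 264.0 RPKM in untreated cells and 142.0 with palbociclib (adjusted p 0.00768), and CCNA2 at 78.3 and 59.0 (adjusted p 0.00583). MKI67, the Ki-67 proliferation antigen, was at 19.0 RPKM in untreated cells and 20.0, 16.0 and 17.7 with ATRA, palbociclib and the combination, with no adjusted p below 0.575 against untreated.

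**Figure D5:**
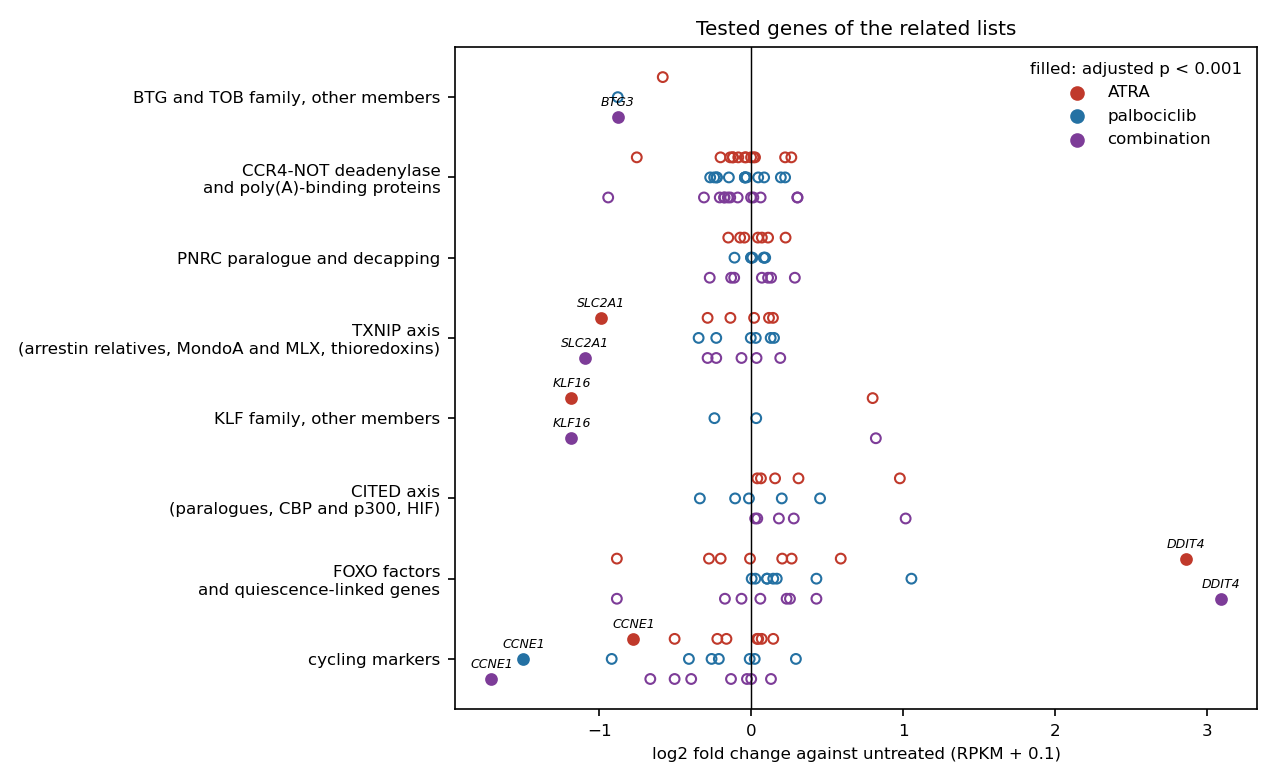
Log2 fold change against untreated on the RPKM + 0.1 scale (horizontal axis) of the tested genes in 8 related lists (rows) with ATRA, palbociclib and the combination, filled where the adjusted p-value from limma was under 0.001. The filled genes are BTG3, SLC2A1, KLF16, DDIT4 and CCNE1, of which DDIT4 is the only one above 0.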

How the data were processed

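Poly(A) RNA of 12 HL-60 libraries was sequenced. Mapping by the authors used HISAT2 and hg38, and htseq-count in default settings gave the reads of each gene, with versions not given in the sources used here. The deposited values are a score, RPKM that the authors rounded to whole numbers, with no pooling of replicates. All columns belong to labelled samples. The methods of the study name voom on counts, and since the table holds rounded RPKM, limma 3.58.1 in R 4.3.3 was fitted to log2(RPKM + 0.1) instead, with Python 3.11.15 for tables and plots.

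One mean per group was fitted over all 12 libraries, with eBayes and a variance trend, for the 7820 genes with at least 5 RPKM in at least 3 libraries. Benjamini-Hochberg adjustment ran within each comparison over all of these, and calls were made below 0.001. Intervals are 95% and come from this model. The script was tested on simulated data. The pseudocount, filter, normalization, threshold, libraries fitted and replicate block were varied, and each library was left out in turn.

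The members and lists were chosen with earlier results of these data known. Every member is named, with the 3 genes of highest correlation to each called member, and from each list the called genes and others chosen after their values were seen.

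Replicate numbers 1 to 3 occur in each group. Deviations of same-numbered libraries from their group means correlated at 0.497 to 0.751 between ATRA and palbociclib, 0.782 to 0.908 between ATRA and the combination and 0.438 to 0.702 for palbociclib with the combination. These numbers therefore pair the treated libraries. List counts come from the fit without the block, which adds some calls. Pairs with an untreated library gave 0.0453 to 0.367, some of them below 0.1. No library duplicated another.

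Upstream windows are from RefSeq on GRCh38.p14, and gene positions from GENCODE v44.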

Additional observations from a re-analysis of the deposited data

How the results depend on the processing

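Of 931 alternative values for the 42 single-gene results, 22 lost the call, 14 gained it, and the other 895 kept their side of the threshold. The sign changed in 15 of these values, all with an unadjusted p of at least 0.05 on both sides. They belonged to 5 results: the departure from additivity of BTG2 (-0.22 to 0.02), TXNIP (-0.07 to 0.04) and CITED2 (-0.07 to 0.06), TOB1 for the combination against ATRA (-0.15 to 0.03) and PNRC1 for the combination against palbociclib (-0.04 to 0.12). At an adjusted p under 0.05 the members called were 5 with ATRA against untreated, 1 with palbociclib (PNRC1), 5 with the combination and 3 for the combination against palbociclib. When only the 6 libraries compared were fitted, there were 0 with ATRA, 0 with the combination and 0 for the combination against palbociclib. With all 12 libraries, 217, 294 and 165 of the 7820 tested genes were called higher in these comparisons at 0.001. In these smaller fits, each having fewer libraries for the spread, it was 54, 49 and 20. The calls of the listed genes were lost in these fits too, with adjusted p from 0.00122 (CCNE1 with the combination) to 0.0103 (CEBPA with ATRA). A filter at 1 RPKM, and no filter, each added KLF6, giving 1 with palbociclib, 2 for the combination against palbociclib and 1 for the departure from additivity, from identical replicates. The same 2 filters took BTG1 from the calls of the combination against untreated (adjusted p 0.00279 and 0.00296), as did the fit with no variance trend (0.00104), which left 2 members called there. With the replicate number as a block, 2 members were called with ATRA (BTG2 and TXNIP, where 4.81% of all tested genes were higher) and 2 for the combination against palbociclib (BTG2 and TXNIP, against 3.58%), while 4 were called with the combination against untreated (PNRC1 was added, against 6.57%), and the other counts of members did not change. Among the listed genes the block added 7 calls with ATRA (CNOT8, PNRC2, MLX, CITED4, IRS2, AZU1 and SPI1) and 3 with palbociclib (DDIT4, PCNA and CCNA2). It added 9 with the combination (CNOT8, PNRC2, MLX, KLF13, CITED4, IRS2, PCNA, CCNA2 and AZU1) and 3 for the combination against palbociclib (MLX, SLC2A1 and IRS2), and removed 0. IRS2 passed the filter only through libraries without ATRA. Over all tested genes the block moved the shares called higher and lower from 2.77% and 1.94% to 4.81% and 4.42% with ATRA. With palbociclib they moved from 0.0128% and 0.486% to 0.0639% and 0.997%, and with the combination from 3.76% and 4.28% to 6.57% and 8.82%. For the combination against palbociclib they moved from 2.11% and 0.997% to 3.58% and 2.57%. With the 9 treated libraries and the block, a fit chosen after seeing the data, the members called for the combination against palbociclib were 3 (BTG2, CITED2 and TXNIP), where 3.13% of all tested genes were higher and 2.12% lower. Leaving out each library in turn gave 1 to 2 members called with the combination against untreated, 1 without untreated replicate 1 or 2. Of the 7820 tested genes, 175 to 283 were then called higher, against 294 with all 12 libraries. Without untreated replicates 1 and 2 it was 192 and 200. Depth is unknown from the table, and rounding limits the values under about 5 RPKM most.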
